A study of Oryza sativa with 12 samples.

Results

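In shoot apical meristem (SAM) samples of rice, 40 of 38867 listed genes (0.103%) had sequencing reads in one genotype only. A gene was taken when its rounded count was 0 in all 3 libraries of one genotype and 30 or more in each of the 3 libraries of the other. Loci at the very start of chromosomes 11 and 12 were left out (locus numbers Os11g0100000 to Os11g0119999 and Os12g0100000 to Os12g0119999). By this rule 19 genes (0.0489%) had reads in myb110 only and 21 (0.054%) in WT only. The genes were thus chosen by their counts in these same libraries, and their levels are given below as a description, without a test.

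The plants were myb110, labelled as mutants of the transcription factor gene MYB110, and WT. The sources used here name neither the allele nor the variety, nor how the mutant was made. Plants of both genotypes grew in the field, and the SAM of the main stem was taken 1 month after transplanting. Each library came from a pool of 20 plants, with 3 pools of myb110 and 3 pools of WT. The series also holds leaf blade pools of both genotypes. For the blade only the list of gene identifiers was used here, because its value columns carry no genotype that matches the labels.

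The SAM is the dome of dividing cells at the shoot tip from which leaves and, after the floral transition, the panicle arise. Several gene families named below lie in tandem arrays in plant genomes. NLR genes encode receptors with a nucleotide-binding domain and leucine-rich repeats that detect pathogen molecules inside the cell, and their neighbours are often near-copies of one another. F-box and MATH-domain proteins bring targets to ubiquitin ligases, lipid-transfer proteins carry lipids through the cell wall, and pol is the enzyme-coding part of a retrotransposon. A count of 0 says only that no read was assigned to that gene model. It does not tell whether the gene is silent, absent or different in sequence. Fewer cells of a type and less RNA per cell cannot be told apart in these bulk pools.

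The 6 libraries held between 14112957 and 18896360 counts. Log levels correlated at r = 0.984 to 0.987 between libraries of one genotype and at 0.942 to 0.949 between genotypes, across genes. The locus taken for MYB110, Os10g0478300, which the table describes as MYB4-like, had counts of 0, 0 and 0 in myb110 and 6, 0 and 1 in WT, too few to check the genotype labels. Of 4 meristem markers of the KNOX class, OSH1, OSH15 and OSH71 each had 975 or more counts in every library, and OSH43 had 0 to 7. OSH1 passed the test as lower in myb110 (log2 -0.09 ± 0.03, edgeR adjusted p = 0.0337), and OSH15 and OSH71 did not pass. The 4 summed to 404 to 428 CPM, the counts scaled to a common library size, in myb110 and 413 to 422 CPM in WT. All 5 leaf mesophyll markers were detected and passed the test as lower in myb110, with log2 changes of -2.18 to -0.65, and summed to 105 to 115 CPM in myb110 and 355 to 385 CPM in WT. The part of leaf cells in the patterns below was not tested. Over 23167 tested genes, 5233 (22.6%) passed edgeR's quasi-likelihood test at an adjusted p under 0.05. Of these, 2523 (10.9%) were higher and 2710 (11.7%) were lower in myb110.

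Reads in myb110 only were found for 10 assembled gene models and 9 reference loci. Assembled models carry MSTRG numbers, given to transcripts that the submitters' processing built outside the reference annotation. The highest level belonged to Os03g0299700, an uncharacterized locus with 1643, 1895 and 2502 counts in the myb110 libraries and 0, 0 and 0 in the WT libraries. That is 127 ± 8.97 CPM in myb110 (SD, n = 3). Set against a floor of 3 counts over the 3 WT libraries, which equals 0.0601 CPM, its level was at least 2130-fold higher in myb110. Its counts were not whole before rounding, and it shares its description with Os07g0162450, which had 0, 0 and 4 counts in WT. The 0 of Os03g0299700 in WT and this bound therefore depend on how reads were divided among rows. Os11g0678200, also without an informative name, followed with 446, 510 and 603 counts in myb110 and none in WT, at least 549-fold. The remaining 17 lay between 2.08 and 12.9 CPM in myb110. The median of all 19 was 8.13 CPM, and at least 137-fold above the floor, while the median of all tested genes in myb110 was 15.7 CPM. Most of these genes were therefore in the lower part of the expression range, at the percentile 36.2 of tested genes in the median, with Os03g0299700 at the percentile 93.4.

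Only 4 of the 19 genes with reads in myb110 carried an informative name. MSTRG.29335 is annotated as PAE1, placed in the proteasome pathway as an alpha subunit of this protein-degrading complex, and had 167, 151 and 229 counts in myb110 and 0, 0 and 0 in WT. Its description gives only the locus number Os12g0497200, so this name rests on symbol, pathway and GO terms. MSTRG.17712 is annotated as a very-long-chain 3-oxoacyl-CoA reductase, an enzyme of fatty acid elongation, and had 122, 128 and 159 counts in myb110 and 0, 0 and 0 in WT. Both are housekeeping functions, and both names also belong to reference loci described below. The other named genes are NLR genes of chromosome 11. Os11g0673900, with the symbol RGA3, had 62, 63 and 85 counts in myb110 and 0, 0 and 0 in WT, at 4.43 ± 0.0587 CPM in myb110 (SD, n = 3). Before rounding its myb110 counts were not whole (61.71, 63.08 and 85.18). Its level, spread and 0 in WT may therefore depend on how reads were divided among rows. Os11g0639100, with the symbol RGA4, had 34, 46 and 43 counts in myb110 and 0, 0 and 0 in WT. Both symbols are shared by many loci. Beside the member, 40 other rows carry RGA3, of which 23 were tested, with 1 higher and 1 lower in myb110. Likewise 26 other rows carry RGA4, of which 17 were tested, with 3 higher and 2 lower. Over all tested genes 22.6% passed. The higher RGA3 row, Os08g0296600, and the lower RGA4 row Os11g0462500 passed narrowly (edgeR adjusted p = 0.0498 and 0.0499).

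Reads in WT only were found for 7 assembled models and 14 reference loci. Their levels in WT were 1.88 to 20.4 CPM with a median of 4.59 CPM, against a median of 16 CPM over all tested genes in WT. Set against the floor of 3 counts over the myb110 libraries, 0.0634 CPM, they were at least 29.4-fold to at least 323-fold lower in myb110. The highest was Os02g0496300, an uncharacterized locus with 0, 0 and 0 counts in myb110 and 281, 388 and 354 in WT. Unlike among the genes with reads in myb110, no gene of this group exceeded the percentile 55.9 of tested genes.

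**Figure D1:**
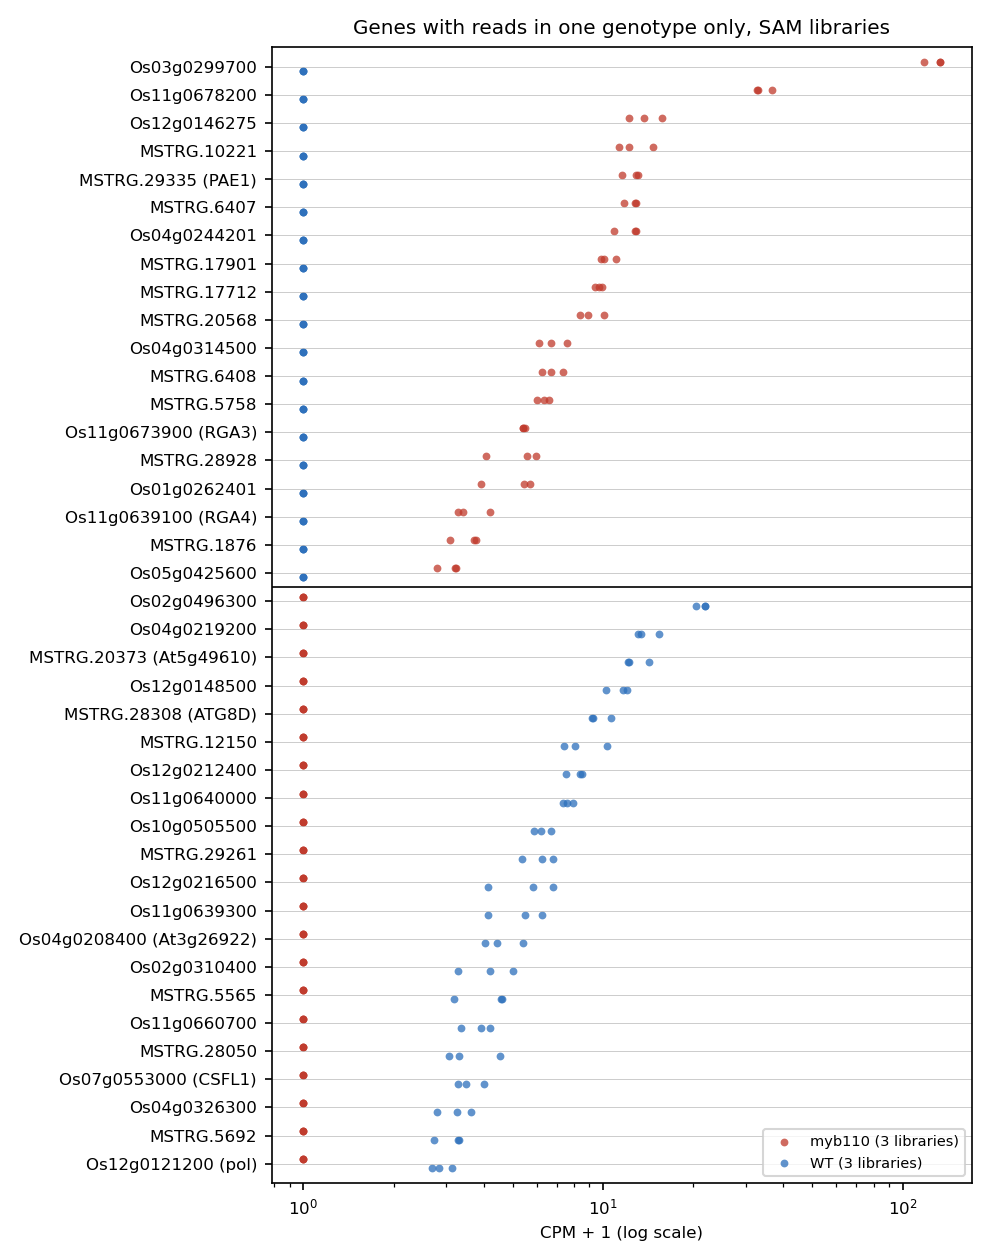
Level of each of the 40 genes in every SAM library, as CPM + 1 on a log axis, with genes that had reads in myb110 only in the upper block and genes that had reads in WT only in the lower block, each sorted by level. Red points are the 3 myb110 libraries and blue points the 3 WT libraries, so a point at 1 is a count of 0. Os03g0299700 at 127 CPM stands far to the right of all others, and the lower block ends at 20.4 CPM.

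In the WT-only group 8 genes carried an informative name and 2 more could be placed by a symbol with a GO term or a pathway. MSTRG.28308 is annotated as ATG8D, a ubiquitin-like protein of the autophagosome membrane, and had 0, 0 and 0 counts in myb110 and 120, 178 and 139 in WT. Its description gives only the locus number Os07g0653366, so the name rests on symbol and pathway. MSTRG.20373 carries the symbol At5g49610 and the GO term of a cullin-RING ubiquitin ligase, and had 0, 0 and 0 counts in myb110 and 161, 245 and 189 in WT. Os04g0208400, an F-box gene of the FBD kind, had 0, 0 and 0 counts in myb110 and 64, 56 and 58 in WT. These and MSTRG.28050, which encodes a MATH domain, belong to protein turnover, a description of 4 names and not a tested theme. MSTRG.28050 had 0, 0 and 0 counts in myb110 and 51, 38 and 39 in WT.

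The other named WT-only genes share no single function. Os11g0640000, an NLR gene described as RPP13-like, had 0, 0 and 0 counts in myb110 and 101, 118 and 111 in WT. Os11g0639300, described by its match to a calcium uniporter of kiwifruit, a channel of the mitochondrial inner membrane, had 0, 0 and 0 counts in myb110 and 65, 97 and 53 in WT. Os10g0505500, a non-specific lipid-transfer protein, had 0, 0 and 0 counts in myb110 and 71, 96 and 97 in WT. The low end of the group holds names as well. Os07g0553000, with the symbol CSFL1 and a GO term for cellulose synthase activity, had 0, 0 and 0 counts in myb110 and 36, 42 and 51 in WT. MSTRG.5692, placed in selenocompound metabolism, had 0, 0 and 0 counts in myb110 and 33, 32 and 39 in WT. Its description names Os02g0470400, a locus with the symbol Vps13, so this placing is uncertain. Os12g0121200, a pol locus just past the left-out start of chromosome 12, had 0, 0 and 0 counts in myb110 and 31 in each WT library.

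Across the 40 genes the levels within the genotype with reads varied somewhat more between libraries than those of all tested genes. The coefficient of variation over the 3 libraries was 1.33% to 23.8% with a median of 10.1% for genes with reads in myb110 only, and 4.43% to 29.8% with a median of 14.7% for genes with reads in WT only. Its median over all tested genes was 7.16% in myb110 and 7.22% in WT. The 40 genes also have lower counts than most tested genes, and the part of counting error in this difference was not tested.

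The annotation of the 40 genes was thin. Of them 28 (70%) had no name beyond a locus, clone or hypothetical-protein label, against 41.8% of all rows, and 6 (15.0%) had a GO term, against 56.7% of tested genes. None was assigned to a transcription factor family, which holds 3.99% of all rows. Assembled models made up 17 of the 40 (42.5%), against 3.5% of tested genes and 2.59% of all rows. Put the other way, 1.69% of 1007 assembled models and 0.0608% of 37860 reference loci had reads in one genotype only. These bases are unlike, since 810 of the assembled models but only 22357 of the reference loci had enough counts to be tested. Of the fixed classes by words in the symbol or description, 3 genes (7.5%) fell among NLR and disease resistance genes. That class makes up 1.02% of all rows. Further, 1 gene fell among F-box genes and 1 among transposon genes. By these words none fell among kinases, cytochrome P450s, glycosyltransferases, transcription factors, peptidases, ribosomal proteins or zinc fingers. The words miss CSFL1, with its GO term for cellulose synthase activity, and MSTRG.20373, whose symbol is shared with an F-box gene. As context, of 261 tested NLR and disease resistance genes 25 were higher and 54 lower in myb110, a share of 30.3% against 22.6% of all tested genes. At least 4-fold changes made up 6.51%, against 1.61% of all tested genes. The class shares include the 3 one-genotype genes, which the rule chose by their difference in these same libraries.

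All 23 reference loci among the 40 are also listed in the blade table. Of the 17 assembled models only the number of MSTRG.6407 appears there. Assembled numbers may differ in meaning between tables, so no blade gene was taken as the same one. Blade values were not analysed here.

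Several of the 40 genes share a symbol or description with another row. Reads of such near-copies can be split or moved between rows by the counting, so these values are uncertain. Counts of the ATG8D, PAE1, 3-oxoacyl-CoA reductase, lipid-transfer and pol rows described below were whole, unlike many counts where reads are divided. Whether reads moved between these rows was not tested. One pair is ATG8D, a symbol carried by 2 rows only. They are paired here by this symbol alone, since their descriptions name different loci. The assembled MSTRG.28308 had reads in WT only, as given above, while Os11g0100100 had 135, 168 and 226 counts in myb110 and 0, 0 and 0 in WT. The number of this locus lies in the left-out start of chromosome 11. Summed over both rows, ATG8D had 11.1 ± 1.3 CPM in myb110 and 8.7 ± 0.796 CPM in WT (SD, n = 3 each). The summed counts, not scaled to library size, were 135, 168 and 226 in myb110 and 120, 178 and 139 in WT. These counts overlapped between the genotypes although neither row had reads in both. In FPKM, which also scale by length, the order was the opposite. Os11g0100100 had 4.29 ± 0.509 FPKM in myb110 and MSTRG.28308 had 5.73 ± 0.523 FPKM in WT (SD, n = 3 each).

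The housekeeping names behave otherwise. The reference PAE1 locus Os11g0615700 had 1771, 1788 and 2526 counts in myb110 and 1780, 2282 and 2199 in WT, with no change that passed the test (log2 0.03 ± 0.04 SE, edgeR adjusted p = 0.607). Its level of 128 ± 4.93 CPM in myb110 was far above the 11.5 ± 0.857 CPM of the assembled PAE1 row. The reference 3-oxoacyl-CoA reductase locus Os11g0432600 had 108, 113 and 159 counts in myb110 and 103, 118 and 102 in WT (log2 0.30 ± 0.15, edgeR adjusted p = 0.141). For both names a row with reads in both genotypes thus stood beside a row with reads in myb110 only.

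Other names had rows that differed strongly and rows that did not. Os10g0505700, the next lipid-transfer protein gene with reads after Os10g0505500, had 3, 0 and 0 counts in myb110 and 101, 113 and 100 in WT (log2 -6.47 ± 0.44, edgeR adjusted p = 1.82e-14). The lipid-transfer rows Os10g0504650, Os10g0504900 and Os10g0505000 beside them had no reads in either genotype, and Os06g0705400, of the same description on chromosome 6, had 0, 6 and 4 counts in myb110 and 5, 10 and 5 in WT, below the filter. The pol rows went in opposite directions. Os12g0142900 had 2, 0 and 1 counts in myb110 and 371, 443 and 420 in WT (log2 -8.44 ± 0.26, edgeR adjusted p = 4.49e-25), while MSTRG.19592 had 204, 181 and 274 counts in myb110 and 0, 0 and 2 in WT (log2 8.19 ± 0.35, edgeR adjusted p = 1.28e-20). Retrotransposon copies are repeated across the genome, so reads cannot be tied to one copy with certainty. The row described like the NLR gene Os11g0640000, Os07g0481400, had 165, 239 and 285 counts in myb110 and 247, 320 and 261 in WT, with no change that passed (log2 -0.19 ± 0.11, edgeR adjusted p = 0.233). Os01g0379400, an F-box gene with the symbol of MSTRG.20373, had 233, 295 and 344 counts in myb110 and 230, 245 and 249 in WT (log2 0.34 ± 0.10, edgeR adjusted p = 0.0131), a call lost under 4 of 13 alternatives, among them leaving out replicate 2 of either genotype.

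Os03g0299700 has the same description as Os07g0162450, a locus on another chromosome. Os07g0162450 had 3967, 3735 and 5401 counts in myb110 and 0, 0 and 4 in WT (log2 11.62 ± 0.15, edgeR adjusted p = 3.74e-20). Counts of both rows were not whole, as counts are where reads are divided among rows. Before rounding, Os03g0299700 had 1642.57, 1894.98 and 2501.62 counts in the myb110 libraries and Os07g0162450 had 3967.43, 3735.02 and 5401.38. In each myb110 library both values add to a whole number. The separate levels, and the count of 0 for Os03g0299700 in WT, are therefore uncertain. Counts that are not whole occurred in 10 of the 40 genes (25%) and in 22.9% of all tested genes. Beside Os03g0299700 these were Os04g0244201, Os04g0314500, Os04g0326300, Os07g0553000, Os11g0673900, Os12g0146275, MSTRG.6407, MSTRG.6408 and MSTRG.28050. With which rows their reads were divided was not tested.

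Among the assembled models, 10 of 17 are described by the number of a reference locus, and 8 of those loci are not rows of the table. The 2 that are rows had reads in both genotypes. Os02g0470400 (Vps13), named by MSTRG.5692, had 1211, 1161 and 1631 counts in myb110 and 1059, 1348 and 1326 in WT (log2 0.18 ± 0.05, edgeR adjusted p = 0.00529). Os08g0422500, named by MSTRG.17901, had 7, 14 and 15 counts in myb110 and 20, 33 and 23 in WT (log2 -0.99 ± 0.39, edgeR adjusted p = 0.0688). MSTRG.6407 and MSTRG.6408, both with reads in myb110 only, share one description and had 166, 154 and 225 and 89, 82 and 99 counts in the myb110 libraries.

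**Figure D2:**
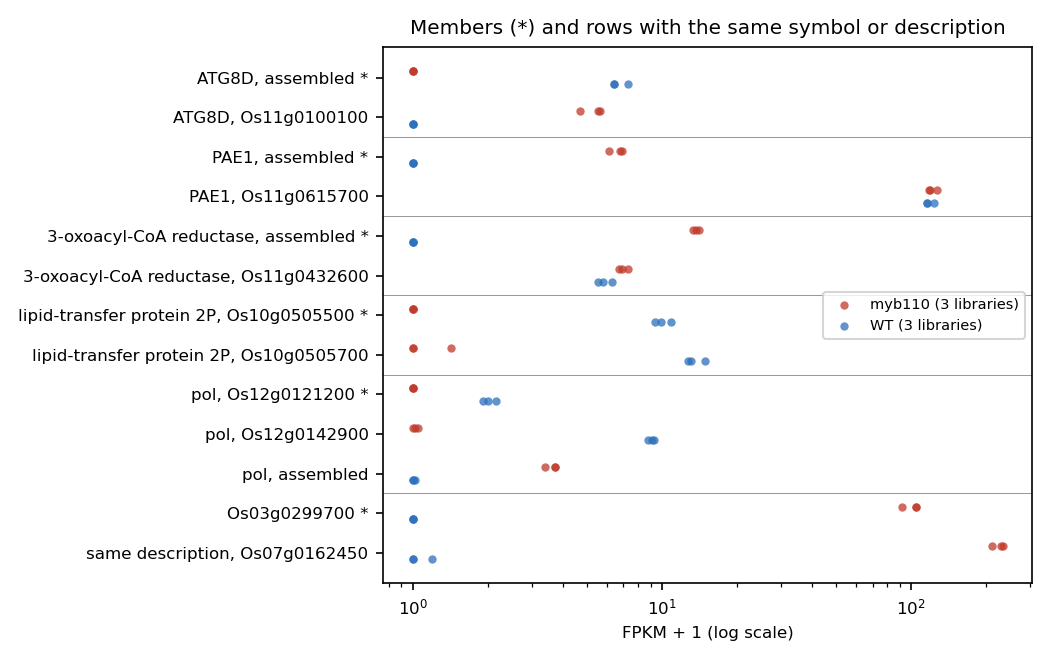
FPKM + 1 on a log axis for genes with reads in one genotype only (asterisk) and for the rows with the same symbol or description, with lines between the 6 names. Red points are the 3 myb110 libraries and blue points the 3 WT libraries. The 2 ATG8D rows mirror each other, both PAE1 and 3-oxoacyl-CoA reductase have one row with reads in both genotypes, and the 2 rows of Os03g0299700's description lie together at the high end in myb110.

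The 23 reference loci were not spread evenly over the chromosomes. Chromosome and order were read from the locus numbers, which count loci along each chromosome. Chromosome 11 held 6 of the loci, chromosome 4 held 5 and chromosome 12 held 5, together 16 of 23 (69.6%), while these 3 chromosomes hold 21.0% of the reference rows. The 3 were picked because they held the most loci, so the 2 shares are a description and not a test. Loci of the left-out starts of chromosomes 11 and 12 could not be among the 23, but they count in the 21.0% and in the places below. Chromosome 2 held 2 loci, chromosomes 1, 3, 5, 7 and 10 held 1 each, and chromosomes 6, 8 and 9 held none. On chromosomes 4, 11 and 12 the loci took up only part of the order. On chromosome 4 all 5 lay between the places 436 and 766 of 3356 listed loci. On chromosome 11 all 6 lay between the places 2094 and 2274 of 2427, near its end, and on chromosome 12 all 5 lay between the places 173 and 739 of 2174. The assembled models carry no position here and are outside these counts.

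**Figure D3:**
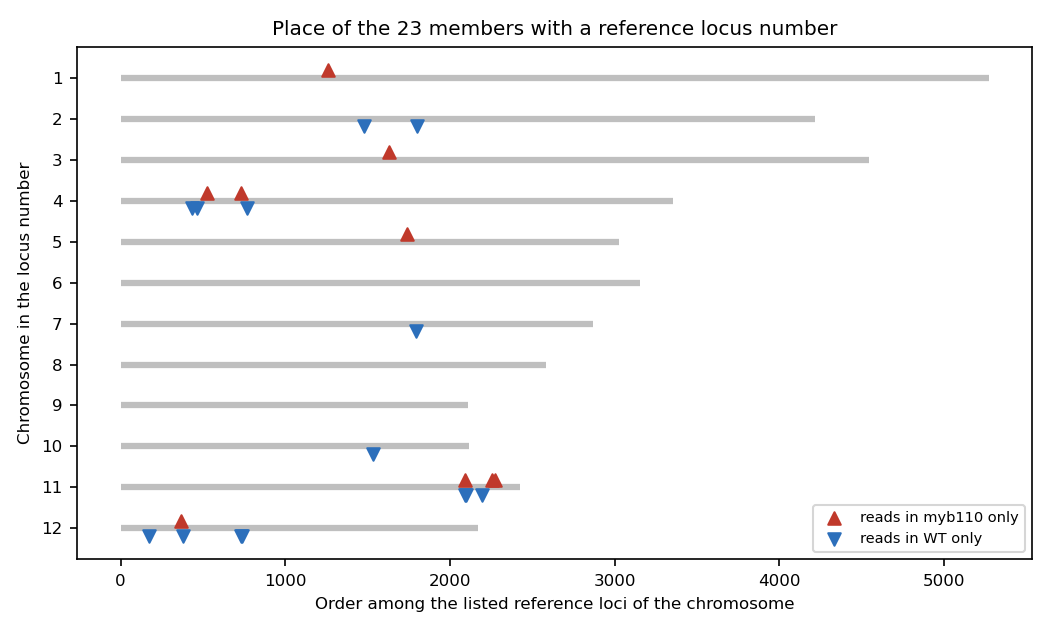
Place of the 23 reference loci with reads in one genotype only, as order among the listed loci of each chromosome (horizontal axis, grey bars give the number of listed loci) against the chromosome in the locus number. Red triangles above the bars had reads in myb110 only and blue triangles below had reads in WT only. Chromosomes 4, 11 and 12 hold 16 of the 23, and each of the 3 holds loci of both kinds.

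Counting members as one run where 10 or fewer listed loci lay between them, 7 of the 23 fell into 3 runs. The longest, on chromosome 11, joined Os11g0639100 (RGA4), with reads in myb110 only, to its next listed locus Os11g0639300 (calcium uniporter), with reads in WT only, and after 3 further loci to Os11g0640000 (RPP13-like), with reads in WT only. Loci with reads in opposite genotypes thus stood next to each other. On chromosome 12, Os12g0146275 had 158, 212 and 239 counts in myb110 and 0, 0 and 0 in WT, and Os12g0148500, with 9 loci between, had 0, 0 and 0 counts in myb110 and 154, 171 and 187 in WT. Neither has a name, and the counts of Os12g0146275 were not whole before rounding, so its values may depend on how reads were divided. The third run, also on chromosome 12, paired the unnamed Os12g0212400 and Os12g0216500 with 5 loci between, both with reads in WT only.

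The other loci of the chromosome 11 run, which the rule did not choose, changed in both directions. Of the 13 other loci shown with it, 8 could be tested, 3 were higher and 4 lower in myb110. Os11g0639600, an RPP13-like NLR gene, had 5, 0 and 1 counts in myb110 and 779, 1021 and 890 in WT, or 0.136 ± 0.192 CPM in myb110 and 53.8 ± 1.31 CPM in WT (SD, n = 3 each). It was lower by log2 -8.64 ± 0.20 (SE, edgeR adjusted p = 9.9e-28). Os11g0640300 has the symbol RPM1, in Arabidopsis an NLR receptor for bacterial effectors, and had 3, 0 and 2 counts in myb110 and 624, 777 and 626 in WT (log2 -8.49 ± 0.22, edgeR adjusted p = 1.54e-27). A short way on, Os11g0641200 went the other way, with 2243, 2181 and 2954 counts in myb110 and 792, 929 and 802 in WT (log2 1.62 ± 0.05, edgeR adjusted p = 6.08e-26). The other higher loci were Os11g0638700, by log2 1.95 ± 0.32 (edgeR adjusted p = 1.12e-05), and Os11g0638900, by log2 0.20 ± 0.04 (edgeR adjusted p = 0.000407). The other lower ones were Os11g0640800, by log2 -2.90 ± 0.14 (edgeR adjusted p = 2.75e-19), and Os11g0639000 (FRA10AC1), by log2 -0.36 ± 0.12 (edgeR adjusted p = 0.0252). The call for FRA10AC1 was lost with DESeq2 and without replicate 2 of either genotype.

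The other loci of the chromosome 12 runs differed between the runs. Around Os12g0212400 and Os12g0216500 all 7 tested loci of 15 were lower in myb110. They include Os12g0211400, with 2, 1 and 1 counts in myb110 and 105, 117 and 93 in WT, and the receptor-like protein genes RLP7 (Os12g0215950) and RLP6 (Os12g0217400). RLP6 had 15, 10 and 16 counts in myb110 and 114, 111 and 97 in WT (log2 -2.89 ± 0.25, edgeR adjusted p = 1.12e-11). Receptor-like proteins sit on the cell surface and carry leucine-rich repeats without a kinase domain. Os12g0214700, inside this run, had 0, 0 and 0 counts in myb110 and 28, 54 and 58 in WT and missed the count minimum in one library. Around Os12g0146275 and Os12g0148500, by contrast, 9 of 14 tested loci did not pass, 1 was higher and 4 were lower. Among the lower was PSK5 (Os12g0147800), a precursor of the growth peptide phytosulfokine, by log2 -0.38 ± 0.04 (edgeR adjusted p = 7.84e-09). The other lower loci, Os12g0145700 (pyruvate kinase), Os12g0147500 (an RNA helicase) and Os12g0148600, changed by log2 -0.22 ± 0.05, -0.22 ± 0.07 and -0.58 ± 0.20. The higher one, Os12g0147200, changed by log2 1.12 ± 0.38 (edgeR adjusted p = 0.0266), a call lost with DESeq2 and without myb110 replicate 2 or 3 or WT replicate 2 or 3.

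**Figure D4:**
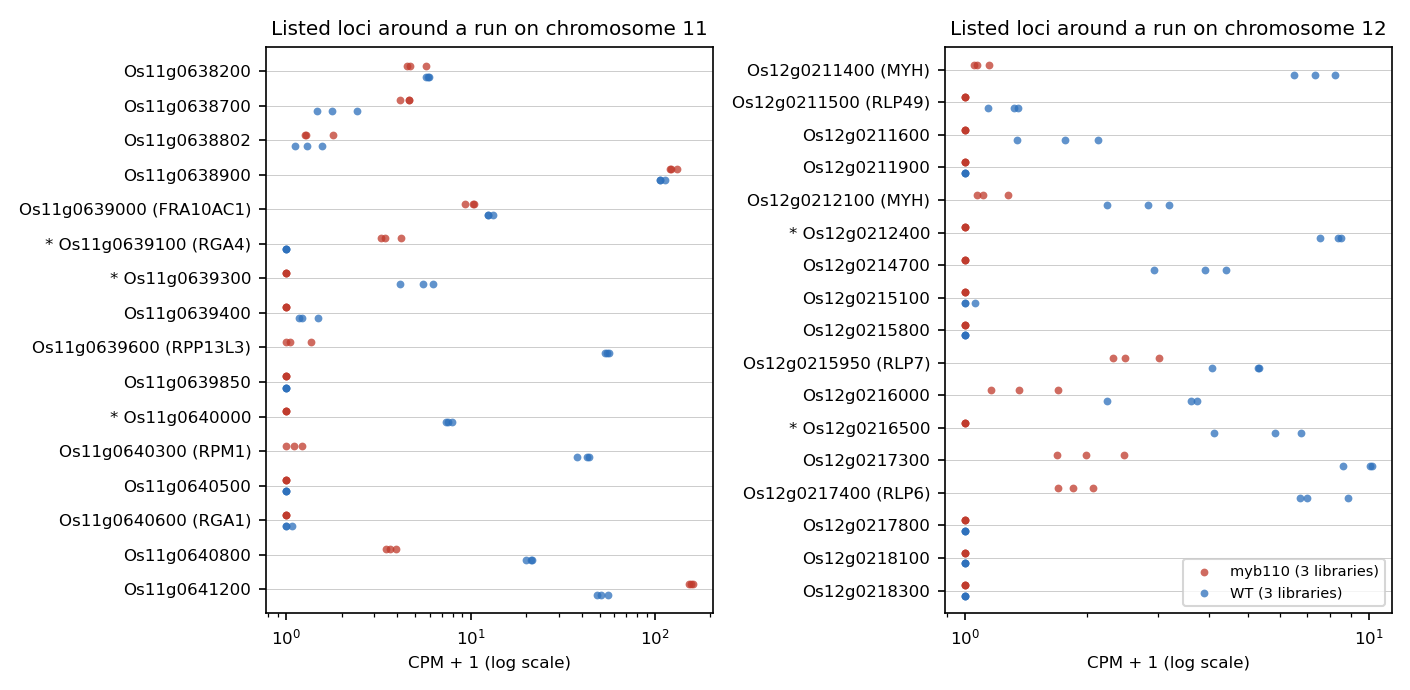
CPM + 1 on a log axis for every listed locus in and 5 loci around a run on chromosome 11 (left) and a run on chromosome 12 (right), in the order of locus numbers from top to bottom. Red points are the 3 myb110 libraries, blue points the 3 WT libraries, and asterisks mark the loci with reads in one genotype only. On chromosome 11 loci higher in myb110 lie before and after a stretch of loci lower in myb110, and on chromosome 12 all 7 tested other loci are lower in myb110.

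The nearest 3 listed loci on each side of the 23 reference loci were then examined, each counted once and the 23 themselves left out. Of these 128 neighbours 41 had no reads in any library and 67 passed the filter on low counts. Of the 67 tested, 10 were higher and 31 lower in myb110, so 61.2% passed edgeR's test at an adjusted p under 0.05, against 22.6% of all tested genes. At least 4-fold changes were found for 2 higher and 12 lower neighbours, 20.9% against 1.61% of all tested genes (0.639% higher and 0.967% lower). The median log2 change of the neighbours was -0.17, and their median size of change was 0.36, against 0.15 over all tested genes. On chromosomes 4, 11 and 12, picked because they held the most of the 23 loci, 8 of 47 tested neighbours were higher and 24 lower in myb110. That is 68.1% passing, against 25.2% of all 4387 tested reference loci of those chromosomes but the members. On the remaining chromosomes 2 of 20 were higher and 7 lower (45% passed), against 21.7% of 17947. Both background shares include the neighbours themselves, and the first includes the starts of chromosomes 11 and 12.

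Neighbours differed by the kind of locus they lay beside. Of 25 tested neighbours nearest to a locus with reads in myb110 only, 5 were higher and 5 lower in myb110, with 1 higher and none lower at least 4-fold. Of 39 nearest to a locus with reads in WT only, 4 were higher and 24 lower in myb110, with 1 higher and 11 lower at least 4-fold. Places were counted with the members left out, so loci around the adjoining Os11g0639100 and Os11g0639300 could count as near to both kinds. This held for the 3 remaining neighbours, with 1 higher and 2 lower. Among them, Os11g0639000 in fact adjoins the myb110-only Os11g0639100, and Os11g0639600 lies between the WT-only Os11g0639300 and Os11g0640000. The difference between the 2 kinds of neighbours was not tested. Beside the myb110-only RGA3 locus Os11g0673900 3 neighbours were higher in myb110. Os11g0673600, named by an Arabidopsis NLR-type locus (At3g14460), had 21, 15 and 30 counts in myb110 and 6, 1 and 2 in WT (log2 2.87 ± 0.56, edgeR adjusted p = 0.000173). Os11g0674400, with the symbol RGA4, had 14, 20 and 26 counts in myb110 and 6, 11 and 5 in WT (log2 1.51 ± 0.46, edgeR adjusted p = 0.0144). That call was lost under 6 of 13 alternatives, among them leaving out WT replicate 1 or 3 or myb110 replicate 2 or 3. BXL2 (Os11g0673200), with the symbol of a beta-xylosidase, changed by log2 0.42 ± 0.09 (edgeR adjusted p = 0.000698). The shares passing were 76% of 25 tested loci directly next to a member, 55% of 20 at place 2, 50% of 22 at place 3 and 58.1% of 43 at places 4 and 5.

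**Figure D5:**
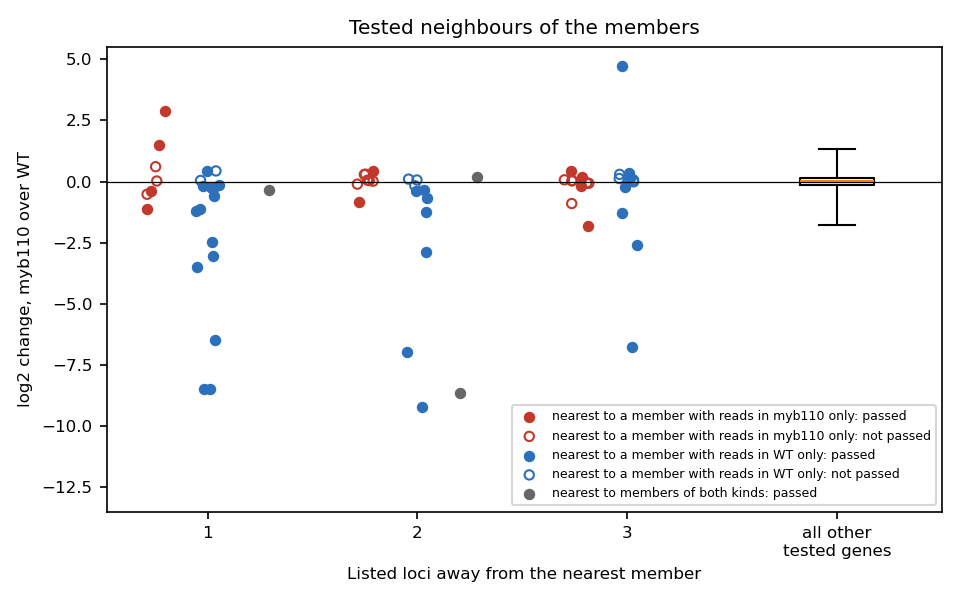
Log2 change, myb110 over WT, of the 67 tested neighbours by the number of listed loci to the nearest locus with reads in one genotype only. The loci are counted with the one-genotype loci left out. Red is nearest to a locus with reads in myb110 only, blue to one with reads in WT only and grey to both, filled points passed edgeR's test, and the box at the right gives all other tested genes (box, quartiles; whiskers, percentiles 1 and 99). Changes beyond 4-fold lie mostly below 0 and beside loci with reads in WT only; Os12g0214700, with 0 counts in myb110, is drawn at its fitted value of -8.49, while its bound is -5.47.

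The 5 neighbours with the lowest adjusted p were the RPP13-like and RPM1 genes above, Os11g0661101, TCTP and PUB73. Os11g0661101, an uncharacterized locus beside the WT-only Os11g0660700, had 1, 0 and 1 counts in myb110 and 521, 530 and 425 in WT (log2 -9.22 ± 0.29, edgeR adjusted p = 1.82e-20). On the other side of the same locus TCTP (Os11g0660500), an abundant protein linked to cell growth, had 55107, 59080 and 77067 counts in myb110 and 44357, 55737 and 50183 in WT. These are 4040 ± 108 CPM in myb110 and 3010 ± 47.3 CPM in WT (SD, n = 3 each), higher in myb110 by log2 0.42 ± 0.02 (edgeR adjusted p = 1.27e-19). PUB73 (Os02g0495400), with the symbol of a U-box ubiquitin ligase, had 6, 0 and 1 counts in myb110 and 251, 328 and 271 in WT (log2 -6.77 ± 0.29, edgeR adjusted p = 6.14e-18). It lies 3 listed loci from Os02g0496300, the WT-only gene with the highest level. At the 4 of these loci that were lower, myb110 replicate 1 held at least as many counts as either other myb110 library.

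Some further neighbours were picked after their values were seen. Os11g0660400, next to TCTP, had 39, 7 and 8 counts in myb110 and 2152, 2639 and 2441 in WT (log2 -6.98 ± 0.31, edgeR adjusted p = 0.000203). CHX15 (Os12g0121600), a cation/proton exchanger gene beside the WT-only pol locus, went the other way, with 121, 134 and 119 counts in myb110 and 5, 8 and 2 in WT (log2 4.71 ± 0.30, edgeR adjusted p = 3.51e-15). Beside the myb110-only Os04g0244201, which had 139, 170 and 223 counts in myb110 and none in WT, HIPP26 (Os04g0244800), a metal-binding isoprenylated protein gene, was lower in myb110 by log2 -1.83 ± 0.11 (edgeR adjusted p = 5.92e-16). A neighbour could thus move against the locus it lay beside. The cellulose synthase-like loci beside CSFL1 (Os07g0552400, Os07g0552800 and Os07g0553400) had 0 to 4 counts in every library of both genotypes.

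The counts of 19 and 21 depend on the threshold and on single libraries. Just inside the count minimum in myb110 lay MSTRG.1876 with 38, 30 and 52 counts, Os05g0425600 with 31, 32 and 34, Os11g0639100, Os01g0262401 with 66, 42 and 84 and MSTRG.28928 with 43, 71 and 86. Just outside lay Os07g0660466, Os01g0852800, Os01g0869750, MSTRG.17668 and Os08g0226666, all at 0 in WT, whose lowest counts in myb110 were 29, 26, 26, 25 and 19. Os01g0852800 and Os01g0869750 have identical values in every library. In WT the 5 just inside were Os12g0121200, MSTRG.5692, Os04g0326300 with 38, 33 and 38 counts, Os11g0660700 with 34, 54 and 54 and Os07g0553000. The 5 just outside, all at 0 in myb110, were Os12g0229100, the NLR gene PIK6-NP (Os11g0689100), Os12g0214700, MSTRG.28238 and XA21 (Os11g0628000), a receptor kinase, with lowest counts in WT of 29, 28, 28, 27 and 26.

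Other rows missed the rule by a single count in the other genotype while far above the minimum. MSTRG.5722 had 845, 884 and 1177 counts in myb110 and 0, 0 and 1 in WT, and MSTRG.23790 had 802, 761 and 1153 in myb110 and 0, 0 and 1 in WT. In the other direction RPS9B (Os03g0379500), annotated as a ribosomal protein, had 1, 0 and 0 counts in myb110 and 402, 457 and 456 in WT, and the NLR gene RGA5 (Os11g0687800) had 1, 0 and 0 counts in myb110 and 366, 519 and 396 in WT. The counts of these 4 rows in the genotype with reads were above those of most of the 40 genes.

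Single libraries decided many such cases. With myb110 replicate 1 set aside, 27 rows joined and 48 genes had reads in WT only, against 21 with all libraries. The counts of that library in the joining rows were 1 to 13 with a median of 2 and summed to 70. With WT replicate 3 set aside, 12 rows joined and 31 genes had reads in myb110 only, against 19, and that library held 1 to 5 counts in each of them. Setting aside any other library gave 20 to 26 genes in either direction.

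Gaps also occurred between libraries of one genotype. Among the myb110 libraries 13 rows had 0 counts in exactly 1 library and 30 or more in both others, and among the WT libraries 10 did. Rows with 30 or more counts in each library numbered 19027 in myb110 and 19349 in WT. Of the 58 rows in myb110 and 50 in WT with 0 in at least 1 library and 30 or more in another, 53 in myb110 and 48 in WT had counts that were not whole.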

How the data were processed

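Poly(A) RNA of pooled SAM tissue was fragmented and copied with random primers, per the labels' protocols. Each library is a pool, and p-values therefore reflect differences among pools, not plants. Strand is not stated for the library or the counting, which leaves genes that overlap or run antisense uncertain. The submitters' processing notes name fastp. Which aligner, counter, genome build and annotation were used is not given in the sources used here, and no coordinates or sequences are printed. The deposited values per gene are estimated counts, per the file headers, of which 12.262% to 13.209% per library were not whole within 0.005. FPKM, scaled by length and depth, were deposited by the authors beside them, per the file headers. Tissue is taken from the table's name. In all, 24 columns of per-sample values that match no sample label were not used.

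Estimated counts were rounded. Genes were kept by filterByExpr (minimum count 10), scaled by TMM and tested with edgeR 4.0.16 (quasi-likelihood, robust, R 4.3.3) over all 23167 genes, with Benjamini-Hochberg adjustment at 0.05. All 40 one-genotype genes passed the filter, through the genotype in which they had reads. Positive log2 changes are higher in myb110. Standard errors are log2 changes without sign divided by the root of F. CPM use library totals over the kept genes times the TMM factors. Folds against 0 are bounds against a floor of 3 counts summed over the group, and floors cover counting error only. On simulated counts with this design the test recovered 47 of 67 genes changed 1.5-fold and 65 of 67 changed 2-fold among 23167 genes, with 8 false calls. Every gene was simulated with one common spread between libraries (biological coefficient of variation 0.0465), so genes that vary more are not covered.

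Members and lists were chosen with earlier results of these data known. Values in every library are given for the 10 highest members per direction with an informative name or symbol, members of runs, members that share a name with another row, the 5 members nearest the threshold on each side and the 5 neighbours with the lowest adjusted p. The other loci were picked after their values were seen. Replicate numbers were tested as a pairing, with the outcome among the alternatives at the end. The alternatives were other thresholds, scalings, filters, DESeq2 1.42.0, limma 3.58.1 on log2(FPKM + 1) and log2(FPKM + 0.1), a replicate block, leaving out each library and leaving the members out of the fit.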

Additional observations from a re-analysis of the deposited data

How the results depend on the processing

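The number of genes with reads in myb110 only and in WT only followed the threshold. It was 36 and 43 with 10 or more counts, 14 and 13 with 50 or more, 10 and 7 with 100 or more, and 34 and 55 when up to 3 counts summed over the other genotype were allowed. Leaving out single libraries gave 19 to 31 with reads in myb110 only and 22 to 48 with reads in WT only. The cause was not tested. With 20 or more counts the numbers were 23 and 30, and with the starts of chromosomes 11 and 12 kept they were 24 and 22. Requiring exactly 0 before rounding, or an FPKM listed at 0, gave 19 and 21. With 10 or more counts 21 reference loci lay in runs, against 7, because more loci entered.

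Taking the nearest 1 neighbour on each side gave 3 higher and 16 lower in myb110, and the nearest 5 gave 19 and 47, since fewer or more loci were examined. In the other alternatives the nearest 3 gave 7 to 10 higher and 24 to 33 lower. Over all genes DESeq2 called 1847 higher and 2038 lower.

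Replicate numbers did not pair the samples. Deviations of same-numbered libraries correlated at -0.0469, -0.0407 and 0.0107 across genes, and with a replicate block 10 neighbours were higher and 31 lower, and 2394 and 2582 of all genes. Of 36 single loci 32 stayed on their side of the threshold in every alternative run. Os11g0615700, one of these, which passed in none, had log2 -0.0015 without myb110 replicate 3 and 0.0595 without WT replicate 3, its extremes. Depth limits the genes near the minimum, where a few counts decide membership.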
